A study of Mus musculus with 6 samples.

Results

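Of the 517 microRNA assays read in mouse aortas, 10 measure microRNAs of the proximal end of the imprinted Dlk1-Dio3 cluster on mouse chromosome 12, the stretch that runs antisense to the gene Rtl1. They were chosen by assay name, without passenger strands: miR-673-5p, miR-673-3p, miR-337-5p, miR-337-3p, miR-540-5p, miR-665, miR-431, miR-433, miR-127 and miR-434-3p, which come from 8 hairpins. All 10 were on the arrays and all 10 could be tested.

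The aortas came from 6 male mice. In 3 mice (Dicer_KO), LysM-Cre, which is Cre recombinase driven from the lysozyme M gene, met floxed copies of Dicer (Dicerflox/flox). The other 3 mice (Dicer_WT) were littermates with LysM-Cre and wild-type Dicer (Dicerwt/wt). All were Apoe-/-, which makes mice prone to atherosclerosis, and began a diet with 21% crude fat at 6 to 8 weeks of age, kept up for 12 weeks. This gene is on in macrophages, monocytes and neutrophils, so the Cre does not target Dicer in the muscle, endothelial and connective tissue cells of the wall, and the arrays do not measure how far Dicer was lost in any cell. The labels give macrophage as the cell type, but the RNA was that of whole aortas, and the smooth muscle microRNAs miR-143 and miR-145 were detected in all 6. Each aorta was read once per assay by TaqMan PCR as a threshold cycle (Ct), the cycle at which product appears, so that a later Ct means less RNA.

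Dlk1-Dio3 is an imprinted region. Its coding genes Dlk1, Rtl1 and Dio3 are expressed from the paternal chromosome, and its long non-coding RNAs, snoRNAs and microRNAs from the maternal one. The proximal hairpins lie in a maternal transcript opposite Rtl1, a gene derived from a retrotransposon. In the mouse, microRNAs from it, among them miR-127, miR-431, miR-433 and miR-434, match the Rtl1 transcript fully and direct its cleavage, which matters in the placenta. As with most microRNAs, Drosha frees each hairpin and Dicer then cuts off its loop, which leaves the 5p and 3p arms, either of which can be kept.

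The mature sequences show how the 10 microRNAs are related. All were matched in RefSeq (GRCm38.p6), with the seed (bases 2 to 8 from the 5′ end) in capitals. The files hold no probe sequences, so miR-431 was taken as the 5p arm and miR-665, miR-433 and miR-127 as 3p arms, as in older naming.
miR-673-5p: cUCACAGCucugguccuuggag
miR-673-3p: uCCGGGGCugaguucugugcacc
miR-337-5p: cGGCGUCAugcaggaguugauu
miR-337-3p: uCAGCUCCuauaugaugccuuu
miR-540-5p: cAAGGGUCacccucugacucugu
miR-665: aCCAGGAGgcugaggucccu
miR-431: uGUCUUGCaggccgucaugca
miR-433: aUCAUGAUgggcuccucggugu
miR-127: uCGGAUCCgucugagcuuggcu
miR-434-3p: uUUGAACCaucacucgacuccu

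The 10 had 10 distinct seeds, so they form a group by position and not by seed family. Of these seeds, only that of miR-673-5p recurred among the other mouse mature microRNAs of the table, in miR-6985-3p. The longest stretch shared by 2 of them was 9 bases, CGUCAUGCA, which starts at base 4 of miR-337-5p and at base 13 of miR-431, outside the seed of the second. All 8 hairpins lie on the plus strand and inside the annotated span of Rtl1, over 22.6 kb from Mir673 (chr12:109571990-109572080) to Mir434 (chr12:109594506-109594599). Mir673 stands apart from the rest, 13.7 kb before Mir337. Mir337, Mir540 and Mir665 are packed together, with 194 and 167 bases between neighbours, and Mir431 follows 4.04 kb later (chr12:109590447-109590537). Dicer1, the gene that was floxed, is annotated on chromosome 12 too. The sources used here do not name the strain that the floxed copies came from, so sequence linked to them on this chromosome cannot be told apart from the loss of Dicer.

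All 10 assays gave product in every Dicer_WT aorta, at a wide range of cycles. In order of mean Ct there, miR-127 came first at 20.8 ± 0.146 (rank 71 of 517) and miR-434-3p next at 21.3 ± 0.406 (SD, n = 3). miR-431 followed at 24.8 ± 0.464, miR-337-5p at 24.9 ± 0.228, miR-673-3p at 26.6 ± 0.151, miR-433 at 26.7 ± 0.581, miR-673-5p at 27.0 ± 0.267 and miR-337-3p at 27.4 ± 0.186. miR-540-5p at 30.0 ± 1.01 and miR-665 at 30.5 ± 0.390 (rank 327) were last. Neighbours in this order kept it in all 3 Dicer_WT aortas except for miR-431 and miR-337-5p, miR-673-3p and miR-433, miR-433 and miR-673-5p, and miR-540-5p and miR-665, which cannot be ranked against each other. Assays can amplify with unequal efficiency, so this is an order of readings and only roughly one of abundance. In Dicer_KO aortas the mean Ct of miR-431 was 27.3 ± 0.698, later than that of miR-337-5p at 25.9 ± 0.393 in all 3 aortas (SD, n = 3). miR-673-3p, at 27.1 ± 0.221 there, came after miR-431 in Dicer_KO replicate 1 and before it in the other two, so this pair cannot be ranked.

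The comparison asks how aortic microRNA levels differ between mice with floxed and mice with wild-type Dicer, all with LysM-Cre. In Dicer_KO aortas, miR-431 and miR-665 were called lower, 2 of the 10 proximal assays, and 0 were called higher (limma, Benjamini-Hochberg adjusted over 377 assays tested). Over all 377 assays, 7 were called lower, which is 1.86%, and 0 higher, and at an unadjusted p under 0.05 there were 92 lower (24.4%) and 9 higher (2.39%), against 7 lower and 0 higher among the 10. Besides the 2 calls, the largest differences stood at miR-433 and miR-540-5p, where 2 of 3 Dicer_KO aortas gave no product, and moderate ones at miR-434-3p, miR-337-3p, miR-337-5p and miR-127. The arms of Mir673 differed least. All 10 had a log2 fold change below 0, as did 78.2% of all assays tested, and their median was -1.08 against -0.42 over all assays. Testing asked for product in 2 of 3 aortas of a group, which miR-665, miR-433 and miR-540-5p met only through Dicer_WT. For miR-665, silent in every Dicer_KO aorta, a value below 0 was thus fixed beforehand. Among assays detected in all 6 aortas, the median was -0.80 for the 7 proximal ones and -0.37 over all. In 8 of the 10, miR-665 and miR-433 among them, every Dicer_KO aorta lay below every Dicer_WT aorta, which was so for 32.6% of all assays. The opposite, every Dicer_KO aorta above, held for 0 of the 10 and for 2.39% of all assays. Fewer cells of a type and less RNA per cell cannot be told apart in whole aortas.

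**Figure D1:**
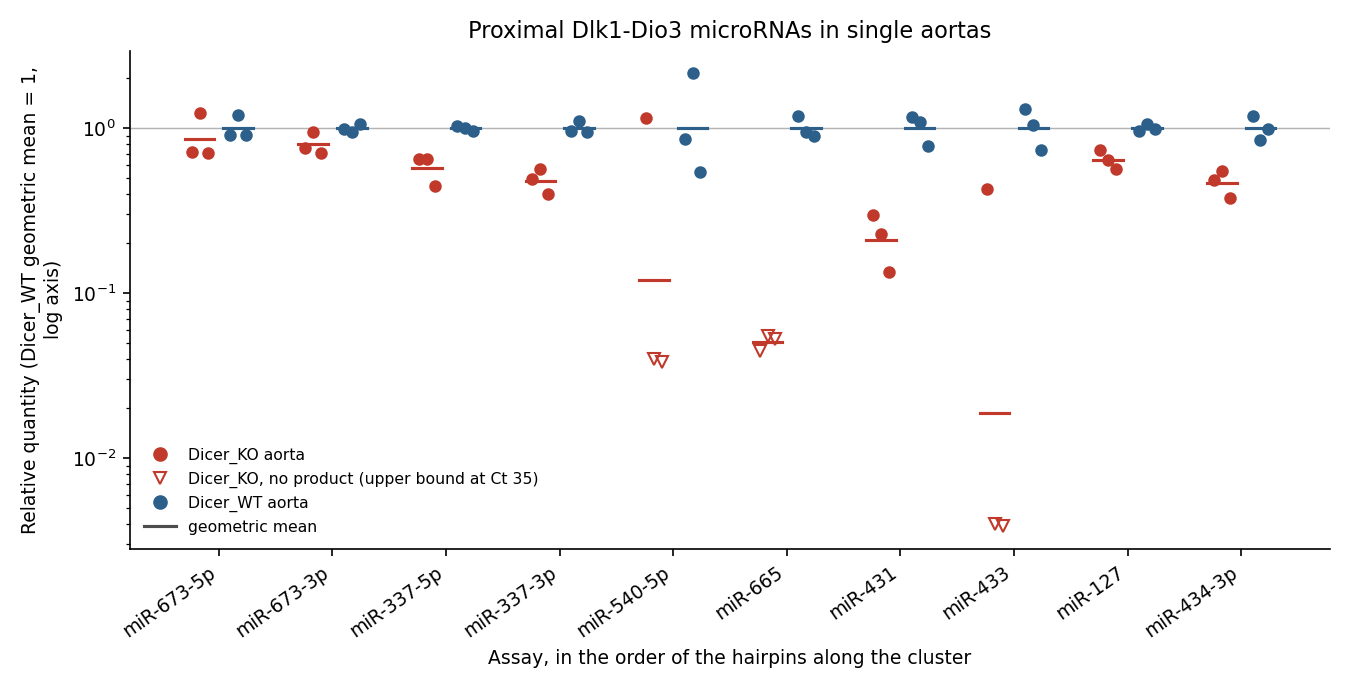
Relative quantity of the 10 proximal assays in each aorta (log axis, geometric mean of the Dicer_WT aortas set to 1), with assays in hairpin order along the chromosome. Filled points are measured wells, open triangles are wells without product drawn at the upper bound set by Ct 35, and bars are geometric means; miR-665 has 3 triangles, miR-433 and miR-540-5p have 2 each, and all are Dicer_KO aortas.

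miR-431, which in mouse muscle stem cells acts on Pax7, was the member with the clearest measured difference. Its relative quantity, a linear ratio to reference RNAs with the Dicer_WT geometric mean at 1, was 0.298, 0.229 and 0.134 in Dicer_KO aortas, against 1.17, 1.10 and 0.777 in Dicer_WT aortas. All 3 Dicer_KO values lay well under the lowest Dicer_WT value. The log2 fold change was -2.26 ± 0.353 (SE, n = 3 each, 95% interval -3.13 to -1.39, limma adjusted p = 0.0400), about 0.209 of the Dicer_WT level. The authors' deposited table gives a fold of 0.217 for Dicer_KO over Dicer_WT. Of the 7 proximal assays detected in all 6 aortas, miR-431 had the lowest log2 fold change. Its value minus that of each other assay was thus bound to be negative, and ran from -1.16 for miR-434-3p to -2.04 for miR-673-5p. Within aortas, the Dicer_KO and Dicer_WT ratios did not overlap for any of these 6. All 6 ratios share the miR-431 wells, and those with the Mir673 arms cross cards, so reference RNAs enter them. The call of miR-431 was close to the threshold and was lost without Dicer_KO replicate 2 (adjusted p = 0.0836), without Dicer_WT replicate 1 (0.178), 2 (0.129) or 3 (0.0626), relative to U6 alone (0.0549) and with no filter on detection (0.0577), while the log2 fold change stayed between -2.52 and -1.75 over all 20 alternatives.

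miR-665 gave no product in any Dicer_KO aorta, with Ct 40 in all 3, against Ct 30.0, 30.6 and 30.8 in Dicer_WT aortas. The genotypes were thus split by presence of product, at a level that was low already in Dicer_WT. With the silent wells set to Ct 35, the latest cycle taken as detected, the Dicer_KO aortas were at least 22.3-, 18.3- and 18.9-fold below the Dicer_WT mean. The log2 fold change at this bound was -4.31 ± 0.195 (SE, limma adjusted p = 8.77e-05). It stayed a call in all 18 alternatives that gave it a value, from -9.31 with Ct 40 taken as measured, which is no bound, to a bound of -1.31 at a Ct cutoff of 32 (adjusted p = 0.0305). The adjusted p treats silent wells as measured and so leaves out their true spread. Each of the 18 alternatives gives the silent wells a value, so together they are no independent support for the call. The authors' deposited table has a fold of 0.00157, which takes Ct 40 as a measurement.

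miR-433 and miR-540-5p were split within the Dicer_KO group. miR-433 had Ct 28.0, 40 and 40 in Dicer_KO aortas, against 26.1, 26.7 and 27.3 in Dicer_WT aortas. Dicer_KO replicate 1 was thus at 0.428 of the Dicer_WT mean and below every Dicer_WT aorta, and replicates 2 and 3, set to Ct 35, were at least 249.6- and 258-fold below that mean. No well of miR-433 lay between Ct 28.0 and 40. The log2 fold change was -5.73 ± 1.88 (SE, limma adjusted p = 0.133), which was not a call. It was -1.22 (adjusted p = 0.160) with silent wells left missing and -7.99 (adjusted p = 1.41e-04) without Dicer_KO replicate 1.

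miR-540-5p showed the same split in the same aortas, with Ct 29.9, 40 and 40 in Dicer_KO aortas, against 30.0, 29.0 and 31.0 in Dicer_WT aortas. Dicer_KO replicate 1, at 1.15 of the Dicer_WT mean, lay inside the range of the Dicer_WT aortas, and the other 2 were at least 25.1- and 26.0-fold below the mean. On the log2 scale the difference was -3.05 ± 1.43 (SE, limma adjusted p = 0.226), which was not a call. It turned to 0.20 with silent wells left missing, where only replicate 1 remains, and reached -4.67 (adjusted p = 0.0176) without replicate 1. The authors' deposited table gives folds of 0.139 for miR-433 and 0.325 for miR-540-5p, ratios of arithmetic means that rest almost wholly on Dicer_KO replicate 1.

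miR-665, miR-433 and miR-540-5p were read on the first of 2 array cards, as were the 5 proximal assays miR-337-5p, miR-337-3p, miR-431, miR-127 and miR-434-3p, which gave product in every aorta. The sources used here do not name the array lots, so a lot that differed between aortas cannot be told apart from the genotype for these wells.

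miR-434-3p, studied in mouse skeletal muscle, had relative quantities of 0.486, 0.549 and 0.378 in Dicer_KO aortas, against 1.19, 0.849 and 0.991 in Dicer_WT aortas. The groups did not overlap, and the log2 fold change was -1.10 ± 0.231 (SE, limma adjusted p = 0.0641). miR-337-3p was at 0.492, 0.563 and 0.399 in Dicer_KO aortas, against 0.955, 1.11 and 0.941 in Dicer_WT aortas. Here too the groups stood apart, at -1.06 ± 0.202 (SE, limma adjusted p = 0.0626). Neither passed the threshold over all assays. Both did so at a Ct cutoff of 32 (limma adjusted p = 0.0426 each), where 4 of the 10 proximal assays and 6.69% of all assays were called lower. Both also did so among assays detected in all 6 aortas (0.0412 and 0.0389; 3 proximal assays and 6.06% of all) and without Dicer_KO replicate 1 (0.0494 and 0.0446; 6 proximal assays and 14.6% of all).

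miR-337-5p, the other arm of the same hairpin, was at 0.650, 0.647 and 0.447 in Dicer_KO aortas, against 1.03, 1.01 and 0.960 in Dicer_WT aortas. Its Dicer_WT values were the most even of the 10 (SD 0.0545 on the log2 scale), the groups did not overlap, and the log2 fold change was -0.80 ± 0.212 (SE, limma adjusted p = 0.0931). miR-127, the earliest in Ct and the one whose loss in mice disturbs the placenta, was at 0.737, 0.645 and 0.563 in Dicer_KO aortas, against 0.957, 1.06 and 0.983 in Dicer_WT aortas. These groups stood apart as well, with a difference of -0.63 ± 0.180 on the log2 scale (SE, limma adjusted p = 0.101). Neither was called in the main comparison or in any of the 20 alternatives.

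The Mir673 arms, the only 2 of the 10 on the second card, had the smallest differences. miR-673-3p was at 0.758, 0.947 and 0.705 in Dicer_KO aortas, against 0.995, 0.949 and 1.06 in Dicer_WT aortas, so that the groups only just parted at Dicer_KO replicate 2. miR-673-5p was at 0.719, 1.24 and 0.711 in Dicer_KO aortas, against 0.911, 1.20 and 0.914 in Dicer_WT aortas, with replicate 2 the highest of all 6. The log2 fold changes were -0.33 ± 0.188 and -0.22 ± 0.288 (SE, limma adjusted p = 0.265 and 0.576), with 95% intervals of -0.79 to 0.13 and -0.93 to 0.49.

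**Figure D2:**
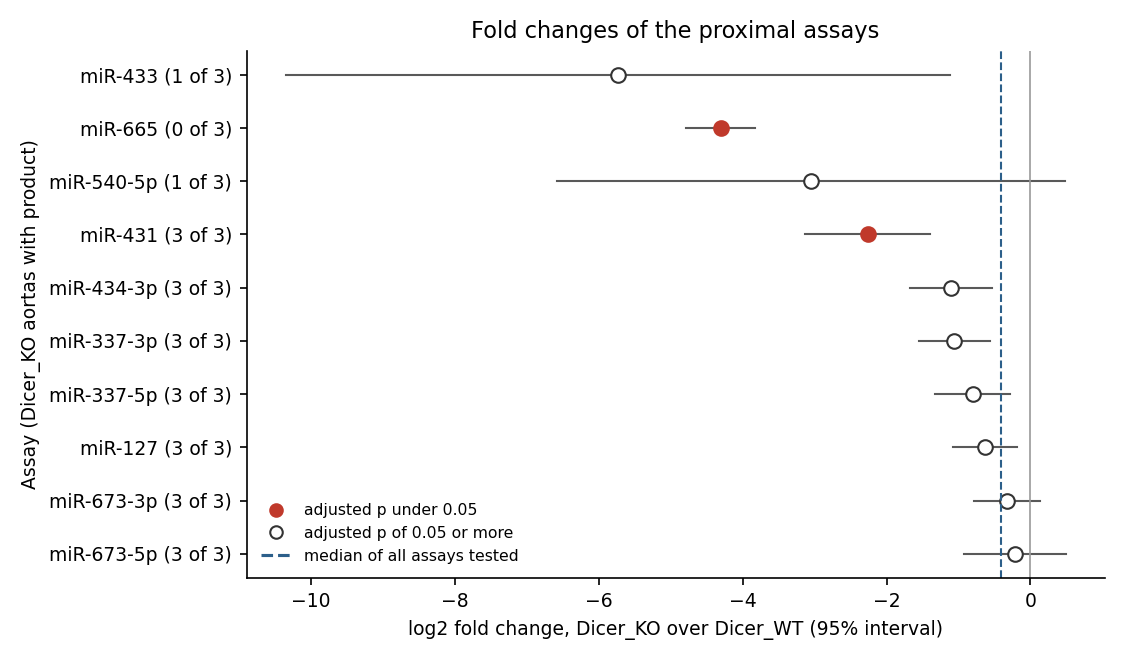
Log2 fold change of each proximal assay, Dicer_KO over Dicer_WT, with its 95% interval (limma); the number of Dicer_KO aortas with product stands beside each name. Filled points are the 2 calls, miR-665 and miR-431, and the dashed line is the median of all 377 assays at -0.42; the wide intervals of miR-433 and miR-540-5p come with silent wells in 2 of 3 Dicer_KO aortas.

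Among single aortas, Dicer_KO replicate 3 had the lowest value of the Dicer_KO group in all 7 proximal assays detected in every aorta. Their mean log2 level was -0.82, -0.69 and -1.23 in Dicer_KO aortas, against 0.037, 0.048 and -0.085 in Dicer_WT aortas. The median over all 377 assays moved along, at -0.21, -0.40 and -0.61 in Dicer_KO aortas, against 0.11, 0.083 and -0.17 in Dicer_WT aortas. The difference between the 7 proximal assays and that median was -0.61, -0.30 and -0.62 in Dicer_KO aortas, against -0.069, -0.035 and 0.081 in Dicer_WT aortas. Without miR-431, a choice made after seeing the data, it was -0.46, -0.058 and -0.34 in Dicer_KO aortas, against -0.10, -0.049 and 0.13 in Dicer_WT aortas. Dicer_KO replicate 2 then lay within the range of the Dicer_WT aortas. Assays detected below Ct 35 numbered 349 to 366 in Dicer_KO aortas and 374 to 378 in Dicer_WT aortas.

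The hairpins give a comparison that no reference RNA enters, since 2 arms read on the same card of the same aorta can be set against each other. For Mir337, Mir673 and Mir434, both arms were measured in every aorta. They are shown here with both mature arms in capitals and the flanks and loop, which Drosha and Dicer remove, in lower case.
Mir337: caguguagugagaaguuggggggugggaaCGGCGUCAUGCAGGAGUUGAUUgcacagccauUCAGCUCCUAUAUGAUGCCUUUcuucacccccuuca
Mir673: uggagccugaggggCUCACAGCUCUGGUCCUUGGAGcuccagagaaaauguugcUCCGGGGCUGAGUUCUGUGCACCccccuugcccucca
Mir434: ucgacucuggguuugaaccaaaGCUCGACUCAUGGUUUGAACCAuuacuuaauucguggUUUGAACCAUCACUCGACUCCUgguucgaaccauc

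In Mir337, the log2 ratio of miR-337-3p over miR-337-5p was -2.83, -2.63 and -2.59 in Dicer_KO aortas, against -2.55, -2.29 and -2.46 in Dicer_WT aortas. The groups did not overlap, and the difference was -0.25 (two-sided exact permutation p = 0.1, which no split of 3 and 3 can go under, and 0.4 after Benjamini-Hochberg adjustment over 4 hairpins). In Mir434, the ratio of miR-434-3p over miR-434-5p was 4.86, 5.46 and 4.96 in Dicer_KO aortas, against 5.78, 5.04 and 5.75 in Dicer_WT aortas, a difference of -0.43 with overlapping groups (exact permutation p = 0.2, adjusted p = 0.4). In Mir673, the ratio of miR-673-3p over miR-673-5p was 0.494, 0.024 and 0.407 in Dicer_KO aortas, against 0.545, 0.077 and 0.631 in Dicer_WT aortas, a difference of -0.11 (exact permutation p = 0.5, adjusted p = 0.667). For Mir127 the arms sat on different cards, and the difference in the log2 relative quantity of miR-127 over miR-127* was -0.15 (exact permutation p = 0.9). The fold change of the second arm alone was -0.67 ± 0.227 for miR-434-5p and -0.48 ± 0.357 for miR-127* (SE, n = 3 each, limma adjusted p = 0.138 and 0.352). The remaining second arms on the array, miR-540-3p, miR-431* and miR-433*, gave no product in any aorta, so that only 1 arm of Mir540, Mir431 and Mir433 was seen.

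**Figure D3:**
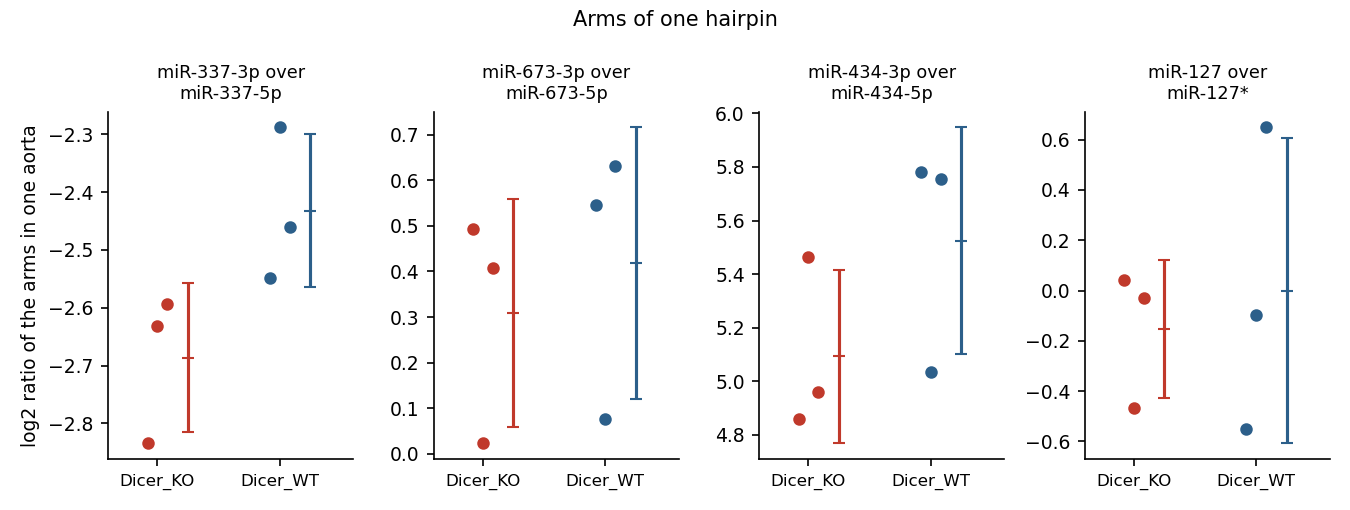
Log2 ratio of the arms of 4 hairpins in each aorta, with the mean and SD of 3 aortas beside the points; ratios are differences of Ct within a card, except for miR-127 over miR-127*, where they are differences of log2 relative quantities. The Dicer_KO and Dicer_WT points are apart only for miR-337-3p over miR-337-5p, by a mean of -0.25.

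Along the chromosome, the fold changes did not run evenly. From Mir673 on, the log2 fold changes were -0.22 and -0.33 for the Mir673 arms, -0.80 and -1.06 for the Mir337 arms, -3.05 for miR-540-5p, -4.31 for miR-665, -2.26 for miR-431, -5.73 for miR-433, -0.63 for miR-127 and -1.10 for miR-434-3p. The 4 lowest values thus came from hairpins that are neighbours among these 8, Mir540, Mir665, Mir431 and Mir433. Milder values stood on both sides, and 3 of the 4 lowest rest on wells without product. At a Ct cutoff of 32, miR-540-5p was at -1.05, less low than miR-337-3p at -1.06 and miR-434-3p at -1.10. The run of 4 thus depends on the value given to silent wells. The cluster goes on with miR-136 and miR-370 and with the distal group around the non-coding gene Mirg. Counted from the start of Mir673, Mir434 starts at 22.5 kb, the miR-136 hairpin at 23.3 kb and that of miR-370 at 46.3 kb. The 10 were chosen by name without miR-136, so Mir434 need not mark the end of the stretch opposite Rtl1. Of 40 further Dlk1-Dio3 assays, without star strands and the second arms of the proximal hairpins, 28 could be tested and 23 were detected in all 6 aortas. Among these 28, 0 were called, 14 were lower at an unadjusted p under 0.05, 27 had a log2 fold change below 0, and 18 had every Dicer_KO aorta below every Dicer_WT aorta (64.3%, against 32.6% of all assays). The median log2 fold change was -1.08 for the 10 proximal assays and -0.80 for these 28, and among assays detected in every aorta -0.80 for the 7 proximal and -0.74 for the 23 others. The 4 with the smallest unadjusted p were miR-453 at -3.50 ± 0.632, miR-543 at -1.11 ± 0.220, miR-495 at -1.13 ± 0.250 and miR-380-5p at -1.03 ± 0.230 (SE, limma adjusted p = 0.0542, 0.0641, 0.0691 and 0.0691). miR-136 and miR-370, the tested assays nearest to Mir434 on its distal side, were at -0.43 ± 0.225 and -0.68 ± 0.290 (SE, limma adjusted p = 0.234 and 0.199). The proximal and distal values come from the same 6 aortas, and no test of a difference between the stretches was made.

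**Figure D4:**
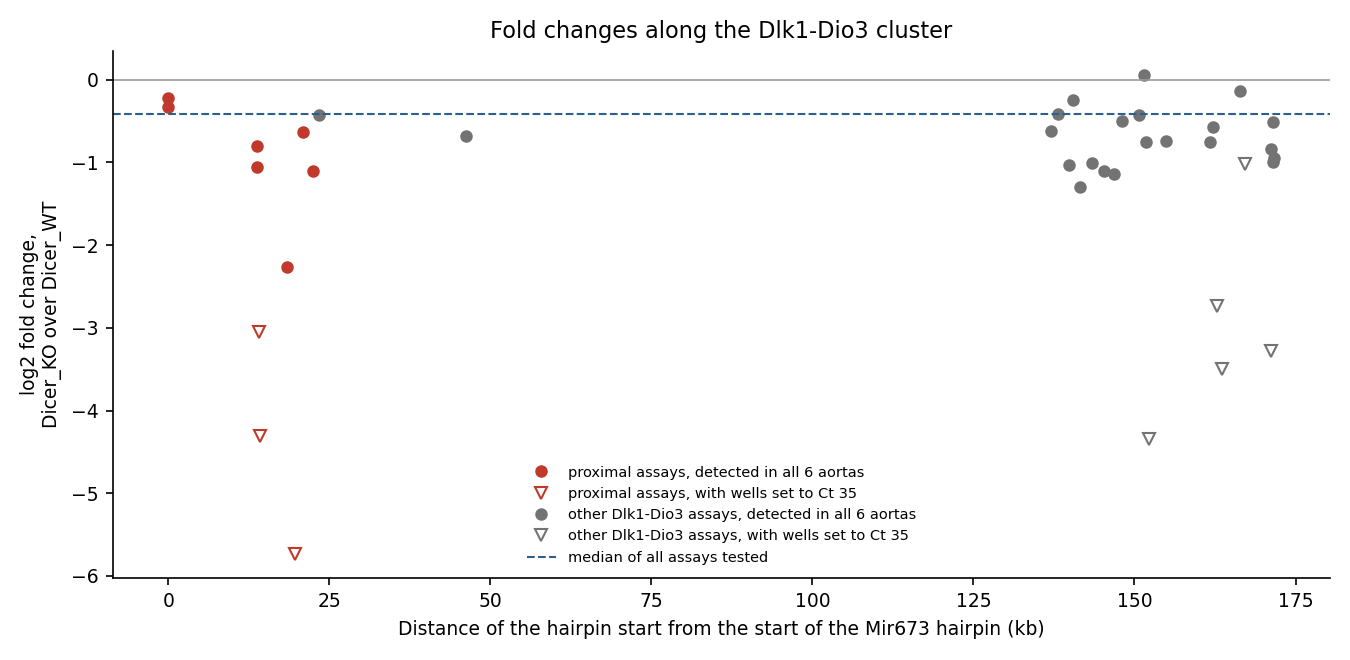
Log2 fold change, Dicer_KO over Dicer_WT, of the tested Dlk1-Dio3 assays against the distance of their hairpin from the start of Mir673 in kb. Red marks the 10 proximal assays and grey the 27 others whose hairpin had a RefSeq position, which miR-544 had not, triangles have wells set to Ct 35, and most points lie below the dashed median of all assays at -0.42, with the lowest at miR-433.

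The assays whose pattern over the 6 aortas was most like the mean of the 7 fully detected proximal assays were sought among 323 others detected in every aorta. By the root mean square difference of log2 levels, each taken from its own Dicer_WT mean, these were miR-338-3p (0.120), miR-409-3p (0.121), miR-410 (0.134), miR-362-3p (0.149) and miR-219 (0.151), against a median of 0.475 over the 323. Of these 5, miR-409-3p and miR-410 belong to the distal part of the same cluster, and miR-338-3p, miR-362-3p and miR-219 do not. The 323 candidates held 23 of the further Dlk1-Dio3 assays. A Dicer_KO difference of similar size by itself brings an assay close by this measure. The measure describes these 6 aortas only.

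MicroRNA markers of other cell types moved to differing degrees beside the proximal assays. The level of a list is the mean of its assays' relative quantities in an aorta. Of 7 myeloid assays, 0 were called and 5, miR-147 among them, had every Dicer_KO aorta below every Dicer_WT aorta (71.4%, against 32.6% of all assays). Their list levels were 0.424 to 0.649 in Dicer_KO and 0.772 to 1.31 in Dicer_WT aortas. Log2 fold changes in this list were -1.99 for miR-511, -1.66 for miR-223, -1.33 for miR-342-3p and -0.93 for miR-146a. Their limma adjusted p was 0.0542, 0.0641, 0.0670 and 0.106. In contrast, miR-142-3p and miR-142-5p hardly differed, at -0.074 and -0.088. The level leans on miR-147, which ranged from 0.291 to 3.19 in Dicer_WT aortas. It was the only assay of the 7 not detected in all 6 aortas. Its Dicer_KO levels, 0.0694, 0.0847 and 0.0819, were bounds set for wells without product. The separation of the groups at miR-147 thus rests on silent wells, and these bounds enter the Dicer_KO list levels. The 3 fibroblast and mesenchyme assays, miR-199a-3p, miR-199a-5p and miR-214, had levels of 0.550 to 0.928 in Dicer_KO and 0.892 to 1.16 in Dicer_WT aortas. Those of the 2 smooth muscle assays were 0.569 to 0.879 in Dicer_KO and 0.906 to 1.10 in Dicer_WT aortas. Both smooth muscle assays had every Dicer_KO aorta below every Dicer_WT aorta, and 0 of the 3 fibroblast and mesenchyme assays did. The levels of the 4 striated muscle assays tested spanned 0.610 to 1.32 in Dicer_KO and 0.940 to 1.07 in Dicer_WT aortas. For the 7 neuronal assays they spanned 0.786 to 2.02 in Dicer_KO and 0.817 to 1.23 in Dicer_WT aortas. Both lists had overlapping groups, but the neuronal assays did not move alike. Every Dicer_KO aorta lay below every Dicer_WT aorta for miR-128a, and above for miR-129-3p. Single Dicer_KO aortas reached 5.28 for miR-129-5p and 5.20 for miR-137. Among the rest, the endothelial miR-126 arms and the lymphocyte miR-150 overlapped between the groups, as did the liver miR-122, while the erythroid level was 2.05 to 3.14 in Dicer_KO and 0.502 to 1.80 in Dicer_WT aortas. None of the marker lists held a call, and their part in the values of the proximal assays was not tested.

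The choice of scaling shifted the values largely together, but not by the same amount for every assay. The median of all assays was -0.42 on the authors' scale, -0.64 without normalization, -0.61 relative to U6, -0.12 with mean centring, 0.0032 after quantile normalization and 0.16 with U87 and Y1, 2 control RNAs, as reference. Measured from that median, miR-431 lay between -1.91 and -1.81 under all 6 scalings, miR-434-3p between -0.83 and -0.66, miR-337-3p between -0.70 and -0.49, miR-337-5p between -0.45 and -0.36 and miR-127 between -0.28 and -0.083. These 5 were thus below the typical assay under every scaling run, whereas miR-673-5p lay above it, between 0.12 and 0.26, and miR-673-3p on both sides, between -0.068 and 0.16. The sign of the Mir673 arms before this subtraction depended on the scaling, at up to 0.42 for miR-673-5p and 0.31 for miR-673-3p relative to U87 and Y1. On the authors' scale U87 differed by -0.44 (exact permutation p = 0.1) and Y1 by -0.71 (0.2) between Dicer_KO and Dicer_WT aortas. The references U6, snoRNA135, snoRNA202 and snoRNA429 differed by 0.21, -0.13, -0.038 and -0.073 (exact permutation p = 0.4, 0.4, 0.7 and 0.4). Each reference enters the mean it was measured against, unlike U87 and Y1, so these small differences cannot show that the references were stable.

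**Figure D5:**
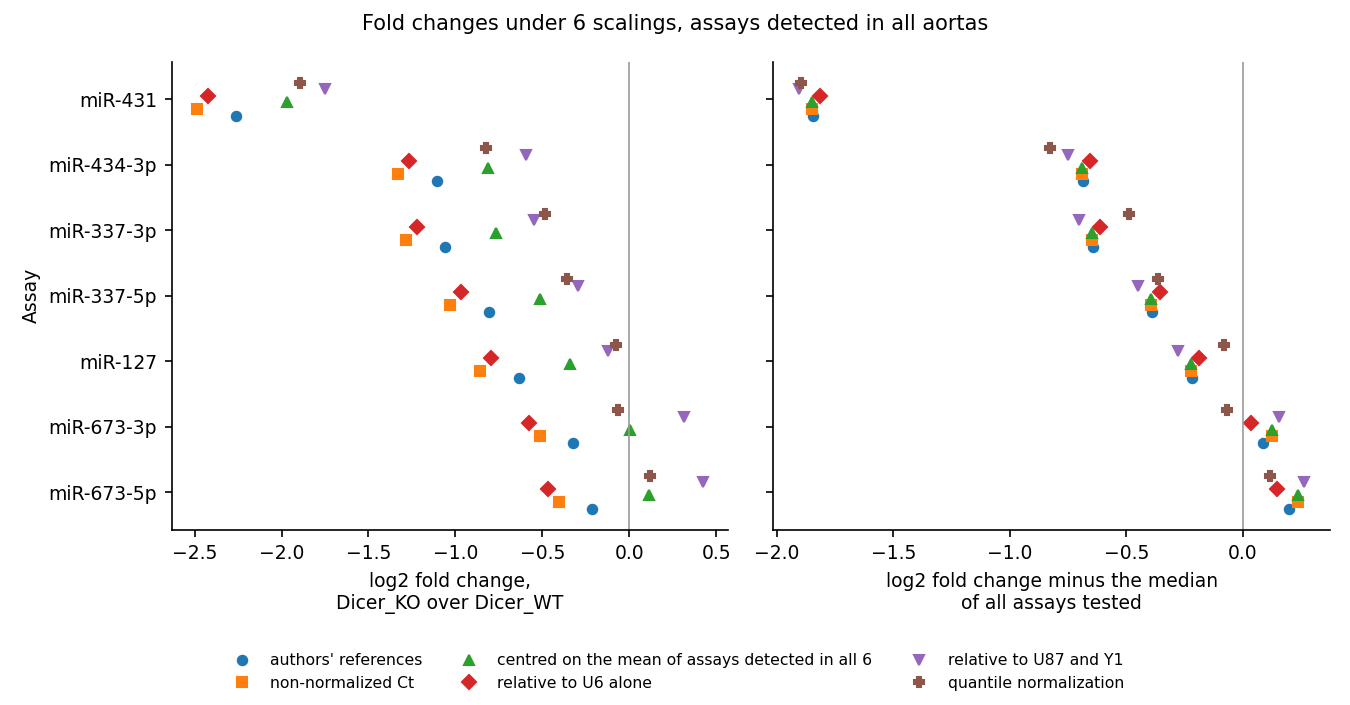
Log2 fold changes of the 7 proximal assays detected in every aorta under 6 scalings, as such (left) and minus the median of all assays under the same scaling (right). The scalings spread the left values, from -2.49 to -1.75 for miR-431, and draw together on the right, where miR-431 lies between -1.91 and -1.81 and keeps the lowest place.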

How the data were processed

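Whole aortas of 3 Dicer_KO and 3 Dicer_WT mice were read on 2 TaqMan cards of 335 and 182 microRNA assays, after reverse transcription and preamplification per the labels' protocols. The sources used here do not name the cycle software, threshold or array version. The authors' deposited Ct table has 40 for wells without product, and 5 cells with a decimal comma were read as points. The authors' deposited relative quantities are a linear ratio. From the values, log2 of this ratio is the mean Ct of U6, snoRNA135 and snoRNA202 (with snoRNA429 on the second card) minus the assay's Ct, relative to the Dicer_WT mean. The authors' fold for each of the 10 assays is the ratio of arithmetic means.

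Wells at or past Ct 35 were set to 35. Assays with product in 2 or more of a group's 3 aortas were tested, on log2 values, with limma 3.58.1 in R 4.3.3 (two-sided, Benjamini-Hochberg over 377 assays, threshold 0.05), and the steps were tested on simulated data. Single ratios were compared by exact permutation tests. The number of arrays limits the precision. Replicates are biological per the labels. Same-numbered aortas correlated in their deviations at 0.18, -0.10 and 0.15, so the numbers were not taken as pairs. No technical batch is named in the labels.

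The 10 assays, the lists and the tests were chosen with earlier results of these data known. Named are all 10, their second arms, the 4 other Dlk1-Dio3 assays of smallest p, the control RNAs, the 5 assays most alike in pattern and examples of marker lists; miR-136 and miR-370 were named after their values were seen.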

Additional observations from a re-analysis of the deposited data

How the results depend on the processing

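Over 20 alternatives, the count of proximal assays called lower was 2 except relative to U6 alone (1), at a Ct cutoff of 32 (4), with undetected wells left missing (1), with no filter on detection (1), among assays detected in all 6 aortas (3) and when 1 aorta was left out (1 to 6). The 6 came without Dicer_KO replicate 1, where 55 of 376 assays (14.6%) were called lower in all; 24 of 359 (6.69%) were at a Ct cutoff of 32, 20 of 330 (6.06%) among assays detected in all 6 aortas, 13 with Ct 40 taken as measured and 5 to 55 with 1 aorta left out. No proximal assay was called higher; over all assays 1 was with mean centring, 2 relative to U87 and Y1, 3 after quantile normalization, 2 at a Ct cutoff of 32, 2 among assays detected in all 6 aortas and 0 to 9 with 1 aorta left out. Of the other Dlk1-Dio3 assays, 1 was called lower on non-normalized Ct, 5 at a Ct cutoff of 32, 2 with undetected wells left missing, 5 among assays detected in all 6 aortas and 0 to 9 with 1 aorta left out.

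The median of the proximal assays stayed below 0, at -0.79 with mean centring, -0.57 relative to U87 and Y1, -0.66 after quantile normalization, -0.80 with undetected wells missing and -0.80 among fully detected assays, which leaves out all 3 assays with silent wells. The median of all assays was -0.64 on non-normalized Ct, -0.12 with mean centring, -0.61 relative to U6, 0.16 relative to U87 and Y1, 0.0032 after quantile normalization and -0.22 with no filter. That of the other Dlk1-Dio3 assays was -0.51, -0.29 and -0.34 with mean centring, U87 and Y1, and quantile normalization. The log2 fold change of miR-431 lost its call relative to U6 (-2.43) and with no filter (-2.26), and ranged from -2.52 to -1.94 with 1 aorta left out. miR-673-5p turned to 0.11, 0.42 and 0.12 with mean centring, U87 and Y1, and quantile normalization, miR-673-3p to 0.0055 and 0.31 with the first 2 of these, and miR-540-5p to 0.20 with undetected wells missing. With 1 aorta left out, the arm ratio of Mir673 ranged from -0.28 to 0.033 and that of Mir127 from -0.43 to 0.17. The cause of these changes was not tested. With the replicate number as a block, 7 assays were called lower, 2 of them proximal, and miR-431 stayed at -2.26 (limma adjusted p = 0.0293); the block changed no other call of the proximal assays. Wells without product bound what can be said of miR-665, miR-433 and miR-540-5p.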
